A study of Mus musculus with 8 samples.

Results

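The tumors of mice given loratadine together with rapamycin were compared with those of mice given rapamycin alone, to ask what loratadine adds to mTORC1 inhibition in the transcriptome. The comparison was chosen by the treatment labels and held 4 of the 8 tumors of the series, 2 in the Loratadine+Rapamycin arm (A3L and C1R) and 2 in the Rapamycin arm (D1L and G3L). The other 4 tumors were 2 of the Loratadine arm (B3R and F3R) and 2 of the Vehicle arm (B1L and F5L), and their values stand beside those of the comparison. All 8 tumors grew under the skin from 105K cells, a single Tsc2-null mouse line, in age-matched female C57BL/6J mice with intact immunity, so that every arm, Vehicle included, lacks Tsc2 function in the tumor cells and holds host cells. Loratadine was given at 25 mg/kg/day and rapamycin at 0.25 mg/kg/day, both in carboxymethylcellulose, which was also the vehicle. By the study's methods, rapamycin and its combinations were started in larger tumors than the single drugs, so the 2 arms compared share their starting size and differ in it from the Loratadine and Vehicle tumors. The last letter of a tumor code was read as the flank, which is an assumption, since the study's methods name no flank. By this reading C1R was the only right-flank tumor of the 4. Both Loratadine tumors were then right-flank and both Vehicle tumors left-flank, so flank and drug cannot be told apart between them.

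Loratadine blocks the histamine receptor HRH1, a receptor that couples through Gq to calcium release and is known from allergy, smooth muscle and endothelium. Rapamycin binds FKBP12 and inhibits mTORC1, the kinase complex that the TSC1 and TSC2 proteins restrain and that drives ribosome production, protein synthesis and lipid synthesis. Cells without TSC2 model lymphangioleiomyomatosis (LAM), a disease in which smooth muscle-like cells with mTORC1 activity remodel the lung. Rapamycin slows such cells without killing them, which is the setting for adding a further drug.

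Expression was measured by RNA sequencing of bulk tumor and is given as TPM, a level per transcript length that is scaled to the same total in each tumor. Of 35539 genes listed, 15095 had at least 1 TPM in at least 2 of the 8 tumors and were tested. Between 13251 and 14371 genes reached 1 TPM in a tumor, and mitochondrial transcripts took 4.83 to 7.88% of the TPM. The labels call the tissue a mammary tumor. The milk protein genes Csn2 and Wap were at or near 0 in all 8 tumors and Csn3 was at 8.69 and 10.7 TPM in Loratadine+Rapamycin tumors, against 3.63 and 0.692 TPM in Rapamycin tumors. Csn3 was at 11.7 and 9.87 TPM in Loratadine tumors and at 174 and 1.53 TPM in Vehicle tumors (B1L and F5L), and 6 of 10 mammary epithelium markers passed the filter. Tsc2 transcripts were measured at 72.6 and 52.1 TPM in Loratadine+Rapamycin tumors, against 78.1 and 58.4 TPM in Rapamycin tumors, so the label of the cells cannot be read from the level of this gene in bulk tissue. The labels do not say more of how the tumors of an arm are related, and each test measures only the spread between these tumors. In bulk tissue, fewer cells of a type and less RNA per cell cannot be told apart.

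No gene passed the test between the 2 arms. With limma on log2(TPM + 1) and Benjamini-Hochberg adjustment, 0 of 15095 genes (0%) had an adjusted p under 0.05, and the smallest adjusted p was 0.14, for Rps13-ps2, a ribosomal protein pseudogene whose reads may belong to its parent gene. At an unadjusted p under 0.05 stood 359 genes (2.38%), of which 282 (1.87%) were higher and 77 (0.510%) lower in Loratadine+Rapamycin tumors. Both Loratadine+Rapamycin tumors lay above both Rapamycin tumors for 2922 genes (19.4%) and below both for 1004 genes (6.65%). The median difference over all genes was 0.08 on the log2 scale. That split between higher and lower genes follows the scaling: 74.4% of the non-overlapping genes were higher with the TPM as deposited, 50.3% after median-of-ratios scaling (1824 above and 1804 below) and 50.3% after quantile normalization (1797 above and 1776 below), where the medians over all genes were 0.00 and -0.01. The median half-width of a gene's 95% interval, not adjusted for the number of genes, was 0.666 on the log2 scale. With 2 tumors an arm, differences well above that also failed the adjusted test, such as 3.07 for Kng2 (limma adjusted p = 0.90).

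The spread inside the Rapamycin arm was the widest of the 6 pairs of tumors. The 2 Loratadine+Rapamycin tumors differed from each other by at least 2-fold, on the TPM + 1 scale, in 908 genes (Pearson r of 0.968 over genes), while the 2 Rapamycin tumors differed in 2057 genes (r of 0.929). A Loratadine+Rapamycin tumor and a Rapamycin tumor differed in 950 to 1655 genes, and all 4 of these pairs differed in fewer genes than the 2 Rapamycin tumors did. For 4697 genes (31.1%) both Loratadine+Rapamycin tumors lay between the 2 Rapamycin tumors, and for 1479 genes (9.8%) both Rapamycin tumors lay between the 2 Loratadine+Rapamycin tumors. The genes described from here on are therefore mainly those in which the arms did not overlap, and some that overlapped are given too. Most have the value of each tumor, and none passed the test between the arms.

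**Figure D1:**
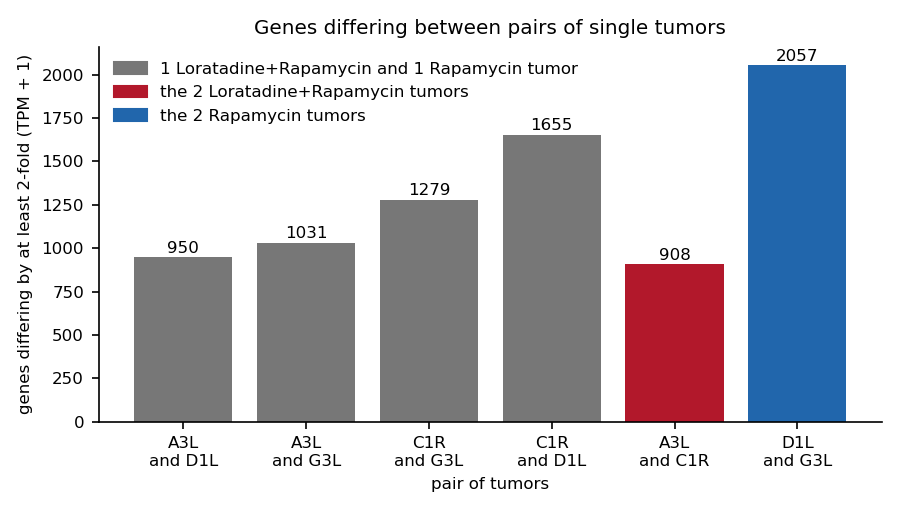
Number of genes, of 15095 tested, that differ by at least 2-fold (TPM + 1 scale) in each pair of the 4 tumors. Gray bars pair a Loratadine+Rapamycin with a Rapamycin tumor (950 to 1655 genes), the red bar is the pair of Loratadine+Rapamycin tumors (908) and the blue bar the pair of Rapamycin tumors (2057), the tallest of the 6.

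Genes of the fibrillar collagen matrix had the highest median of the 37 process lists with loratadine added to rapamycin. Of 22 genes of this list tested, 16 lay above both Rapamycin tumors in both Loratadine+Rapamycin tumors (72.7%, beside 19.4% of all genes) and 0 lay below. The median difference was 0.87 on the log2 scale, beside 0.08 over all genes. The mean log2(TPM + 1) of the list was 6.55 and 7.07 in Loratadine+Rapamycin tumors, against 5.68 and 6.17 in Rapamycin tumors. Col3a1, a chain of type III collagen that forms fibrils with type I, had 541 and 716 TPM in Loratadine+Rapamycin tumors, against 175 and 269 TPM in Rapamycin tumors. Its difference was 1.52 ± 0.28 on the log2 scale (SE, n = 2 an arm; limma adjusted p = 1), and the lowest Loratadine+Rapamycin tumor had more than the highest Rapamycin tumor. Lum, a small leucine-rich proteoglycan that spaces collagen fibrils, had 33.7 and 70.3 TPM in Loratadine+Rapamycin tumors, against 11.9 and 9.47 TPM in Rapamycin tumors, a log2 difference of 2.1 ± 0.47.

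The same order held for the chains of types V and VI. Col5a1, which sets the diameter of fibrils, was at 40.5 and 62.6 TPM in Loratadine+Rapamycin tumors and at 27.4 and 27.5 TPM in Rapamycin tumors. Col6a3, of the beaded filaments around cells, was at 84.1 and 128 TPM in Loratadine+Rapamycin tumors and at 22.6 and 54.9 TPM in Rapamycin tumors. Type I collagen, chosen after its values were seen, did not overlap between the arms either but came closer, with Col1a1 at 474 and 339.6 TPM in Loratadine+Rapamycin tumors and 174 and 311 TPM in Rapamycin tumors. Fn1, the fibronectin gene that the study follows, overlapped between the arms, at 1820.2 and 2199.9 TPM in Loratadine+Rapamycin tumors against 498 and 1941 TPM in Rapamycin tumors. Ccdc80, which encodes a secreted matrix protein of mesenchymal cells, was at 77.0 and 101 TPM in Loratadine+Rapamycin tumors and 44.5 and 31.0 TPM in Rapamycin tumors.

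Basement membrane genes, of the sheets under epithelium and around vessels, had 7 of 17 above (41.2%, beside 19.4% of all genes) and 0 below, with a median of 0.41. After median-of-ratios scaling 3 lay above and 0 below, and the median was 0.26 without C1R, 0.24 without G3L and 0.62 without D1L. Lamc1, the gamma chain of most laminins, was at 49.3 and 90.2 TPM in Loratadine+Rapamycin tumors and at 36.7 and 46.8 TPM in Rapamycin tumors. Col4a5, a type IV collagen chain, was at 19.9 and 29.6 TPM in Loratadine+Rapamycin tumors and at 17.5 and 15.4 TPM in Rapamycin tumors. Among mesenchymal genes, 6 of 15 lay above (40%, beside 19.4% of all genes) and 0 below, with a median of 0.35 that was 0.18 without D1L, 0.20 without C1R and 0.57 without A3L. Mmp2, a gelatinase, was at 147 and 379 TPM in Loratadine+Rapamycin tumors and at 84.0 and 143 TPM in Rapamycin tumors. The nearest tumors of the 2 arms were close in all 3 genes.

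Fibroblast markers, a list that shares Col14a1 with the collagen list, had the same order of tumors. Their mean log2(TPM + 1) was 4.45 and 5.24 in Loratadine+Rapamycin tumors and 3.82 and 4.23 in Rapamycin tumors, with 5 of 12 above (41.7%, beside 19.4% of all genes), 0 below (beside 6.65%) and a median difference of 0.80. Pdgfra, the PDGF receptor of fibroblasts, was at 3.59 and 12.3 TPM in Loratadine+Rapamycin tumors and at 2.65 and 1.92 TPM in Rapamycin tumors. Cd34, on fibroblasts and endothelium, was at 11.2 and 19.1 TPM in Loratadine+Rapamycin tumors and at 6.46 and 8.25 TPM in Rapamycin tumors. Neither gene overlapped between the arms. Pi16, of adventitial fibroblasts, was at 11.2 and 22.8 TPM in Loratadine+Rapamycin tumors and at 6.45 and 3.18 TPM in Rapamycin tumors. Dpt, a defining marker of the list, overlapped between the arms, at 28.4 and 199 TPM in Loratadine+Rapamycin tumors and 8.19 and 45.9 TPM in Rapamycin tumors. C1R was the highest tumor of the 4 for all 4 of these genes, and it also held skeletal muscle transcripts: Ckm was at 0.228 and 26.2 TPM and Acta1 at 0.147 and 40.5 TPM in Loratadine+Rapamycin tumors (A3L and C1R), against at most 0.342 TPM of either in Rapamycin tumors. Adipocyte transcripts were high in a different pair, with Adipoq at 25.8 and 0.0942 TPM in Loratadine+Rapamycin tumors and 9.79 and 0.309 TPM in Rapamycin tumors. The part of fibroblast or muscle content in the collagen values was not tested. Without C1R, 17 collagen genes lay above both Rapamycin tumors and 1 below, with a median of 0.62. Of the fibroblast markers 5 then lay above and 1 below, with a median of 0.39. The counts were 9 and 0 without A3L or without G3L and 7 and 3 without D1L. Over all genes 34.0% lay above and 13.4% below without C1R, and 34.8 and 21.8% without A3L. The shares were 48.5 and 24.5% without D1L and 41.3 and 32.5% without G3L. The fibroblast counts without C1R or without D1L were near these shares.

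**Figure D2:**
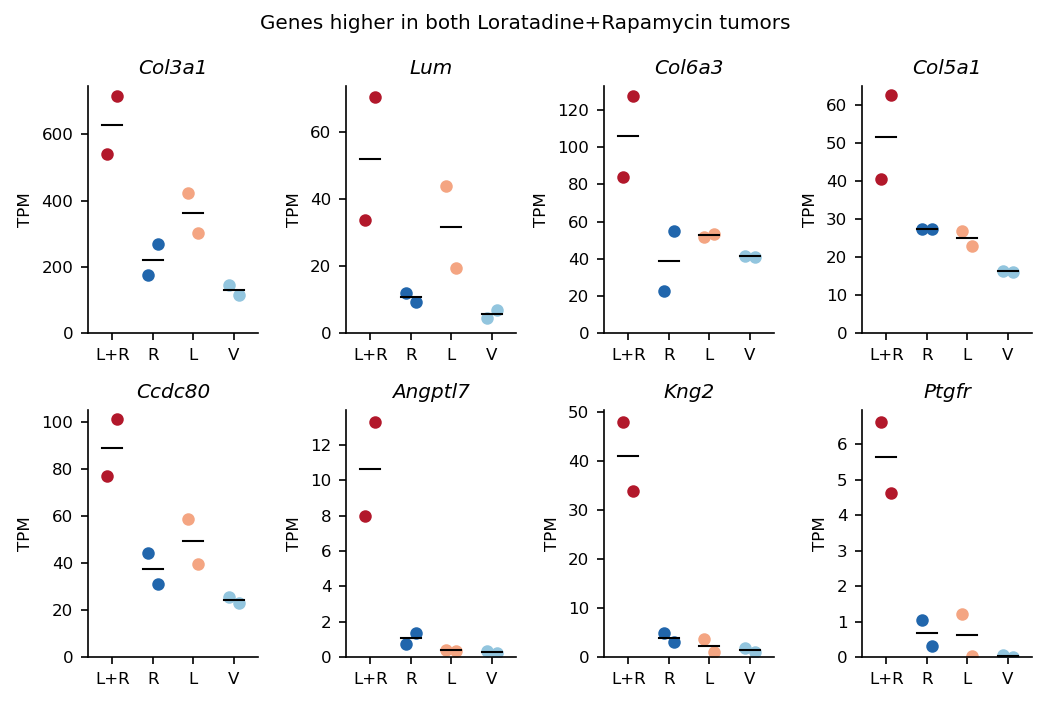
TPM of 8 genes in each tumor of the Loratadine+Rapamycin (L+R), Rapamycin (R), Loratadine (L) and Vehicle (V) arms; points are tumors and bars the mean of 2. The genes were picked among those with both L+R points above both R points. For Angptl7 and Kng2 the other 6 tumors stay at or below 1.39 and 4.99 TPM.

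The genes with the smallest p included secreted proteins and receptors outside the collagen list, and the leading pair was low in the other 6 tumors. Angptl7, a secreted angiopoietin-like protein, had 7.97 and 13.3 TPM in Loratadine+Rapamycin tumors, against 0.768 and 1.39 TPM in Rapamycin tumors, and at most 0.422 TPM in the Loratadine and Vehicle tumors. Its log2 difference was 2.46 with a 95% interval of 1.71 to 3.22 (limma adjusted p = 0.85). Kng2, a kininogen gene of the mouse from which kinins are cut, had 48.0 and 33.8 TPM in Loratadine+Rapamycin tumors, against 4.99 and 3.05 TPM in Rapamycin tumors, with a log2 difference of 3.07 and an interval of 1.97 to 4.17 (limma adjusted p = 0.90). Kng2 lies at 22985927 to 23029174 on chromosome 16 and Angptl7 at 147869292 to 147874569 on chromosome 4 of NCBIM37 (mm9). Both genes stood above the other 6 tumors in both Loratadine+Rapamycin tumors.

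Ptgfr, the receptor of prostaglandin F2alpha, had 6.62 and 4.62 TPM in Loratadine+Rapamycin tumors, against 1.06 and 0.312 TPM in Rapamycin tumors. Olfml1, a secreted olfactomedin-domain protein, had 6.73 and 6.41 TPM in Loratadine+Rapamycin tumors, against 1.43 and 0.706 TPM in Rapamycin tumors. Spink1, a trypsin inhibitor of the pancreas and of many tumors, had 2.59 and 9.0 TPM in Loratadine+Rapamycin tumors, against 0.244 and 0.235 TPM in Rapamycin tumors. These 3 genes, like Angptl7, were in the low range of TPM, where a difference on log2(TPM + 1) understates the ratio. Of the remaining genes by this rule, Steap4, a metalloreductase of adipose and inflamed tissue, had 4.09 and 10.9 TPM in Loratadine+Rapamycin tumors, against 1.29 and 0.142 TPM in Rapamycin tumors. Cntln, which encodes the centrosomal protein centlein, had 10.1 and 12.6 TPM in Loratadine+Rapamycin tumors, against 0.933 and 3.56 TPM in Rapamycin tumors. Mpdz, a scaffold of tight junctions with many PDZ domains, had 14.4 and 18.4 TPM in Loratadine+Rapamycin tumors, against 3.82 and 2.59 TPM in Rapamycin tumors. Steap4, Cntln and Lum were also higher in both Loratadine tumors than in both Vehicle tumors, while for Mpdz the Loratadine values (9.87 and 3.39 TPM) overlapped those of Vehicle (6.08 and 1.04 TPM).

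Blood endothelial markers lay higher as a group, by less than the collagens. Of 16 tested, 11 were above in both Loratadine+Rapamycin tumors (68.8%, beside 19.4% of all genes) and 0 below, with a median difference of 0.45. The list mean was 2.70 and 2.90 in Loratadine+Rapamycin tumors and 2.35 and 2.39 in Rapamycin tumors, and all 4 lay below the Loratadine tumors (2.97 and 3.33) and the Vehicle tumors (3.25 and 3.04) on the same log2 scale. Plvap, of the diaphragms of fenestrated vessels, was at 19.2 and 31.0 TPM in Loratadine+Rapamycin tumors and at 9.08 and 14.8 TPM in Rapamycin tumors. Emcn, the sialomucin endomucin of veins and capillaries, was at 5.18 and 7.90 TPM in Loratadine+Rapamycin tumors and at 3.10 and 3.38 TPM in Rapamycin tumors. Egfl7, secreted by endothelial cells into the vessel wall, was at 33.5 and 34.4 TPM in Loratadine+Rapamycin tumors and at 17.5 and 24.5 TPM in Rapamycin tumors. Of the defining markers, Cdh5, the cadherin of endothelial junctions, was at 4.36 and 7.08 TPM in Loratadine+Rapamycin tumors, against 3.81 and 2.90 TPM in Rapamycin tumors, and Kdr, a VEGF receptor, at 1.89 and 2.48 TPM in Loratadine+Rapamycin tumors, against 1.44 and 1.14 TPM in Rapamycin tumors. Pecam1 overlapped between the arms, at 15.5 and 17.2 TPM in Loratadine+Rapamycin tumors and 11.8 and 17.5 TPM in Rapamycin tumors.

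Antioxidant genes were, with the TPM as deposited, the list with the most genes lower with loratadine added. Of 20 tested, 12 lay below both Rapamycin tumors (60.0%, beside 6.65% of all genes) and 3 above. The median difference was -0.26, and the list mean was 5.75 and 5.67 in Loratadine+Rapamycin tumors and 6.10 and 5.98 in Rapamycin tumors on the log2 scale. Many of these genes are targets of NRF2, the factor that binds the antioxidant response element in promoters when KEAP1 releases it. Gsta3, a glutathione transferase of the alpha class that conjugates lipid peroxidation products in the mouse, had 87.0 and 57.3 TPM in Loratadine+Rapamycin tumors, against 157 and 159.6 TPM in Rapamycin tumors, a log2 difference of -1.15 ± 0.29. Gsta4, a further alpha-class enzyme that clears the aldehyde 4-hydroxynonenal, had 23.4 and 17.6 TPM in Loratadine+Rapamycin tumors, against 42.1 and 35.6 TPM in Rapamycin tumors, a log2 difference of -0.90 ± 0.20. Neither passed the test (limma adjusted p = 1 for both), and in both genes the 2 Rapamycin tumors were close together.

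Gstm1, of the mu class, had 165 and 101 TPM in Loratadine+Rapamycin tumors, against 219 and 212 TPM in Rapamycin tumors. Hmox1, the heme oxygenase that NRF2 and heme induce, had 39.8 and 51.6 TPM in Loratadine+Rapamycin tumors, against 212 and 52.8 TPM in Rapamycin tumors, so that G3L was level with C1R and the gap rests on D1L. These enzymes did not share one order over the series. Gsta4 and Hmox1 were highest in Vehicle tumors (259 and 218 TPM, and 860.0 and 615 TPM) and lowest in Loratadine+Rapamycin tumors, while Gsta3 and Gstm1 were highest in Rapamycin tumors and lowest in Vehicle tumors (34.0 and 20.6 TPM, and 46.2 and 73.3 TPM). Sod1, the cytosolic superoxide dismutase, had 527 and 442 TPM in Loratadine+Rapamycin tumors and 631 and 586 TPM in Rapamycin tumors, and Srxn1, sulfiredoxin, had 31.7 and 33.4 TPM in Loratadine+Rapamycin tumors and 33.9 and 44.3 TPM in Rapamycin tumors. Nfe2l2, which encodes NRF2 itself, differed by -0.01 on the log2 scale. The alpha-class genes are close relatives, and reads shared between them could be split by the counting.

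The promoters of this list were searched for the core of the antioxidant response element, TGACNNNGC on either strand, in RefSeq windows of GRCm38.p6 from 250 bases before to 50 bases after a start. Of the 20 genes, 16 had a window and 7 of these held the core, beside 14% of 27025 genes and 12.4% of 32851 windows. The list was chosen as antioxidant genes and NRF2 targets, so its share cannot be read as a result of the treatment. Of the 9 genes with a window that lay below both Rapamycin tumors, 4 held the core: Gsta3, Sod1, Srxn1 and Nfe2l2. Gclm, Txnrd1 and Prdx1 held it too and did not lie below both Rapamycin tumors. The core can overlap the AP-1 site TGACTCA, and a match is a string of letters, not a bound site. The stretches around the match in Gsta3, Sod1 and Srxn1 are shown, 5′ to 3′ on the strand of the gene. A role of NRF2 in their levels was not tested. The capitals mark the match, read on the opposite strand in Sod1 and Srxn1. They lie at chr1:21240434-21240502, chr16:90220676-90220744 and chr2:152105522-152105573 of GRCm38.p6, all 3 on the plus strand.
Gsta3: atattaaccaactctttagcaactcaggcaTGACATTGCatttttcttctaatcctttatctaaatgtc
Sod1: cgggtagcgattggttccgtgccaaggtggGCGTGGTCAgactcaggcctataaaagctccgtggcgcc
Srxn1: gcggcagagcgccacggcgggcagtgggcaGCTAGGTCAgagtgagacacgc

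**Figure D3:**
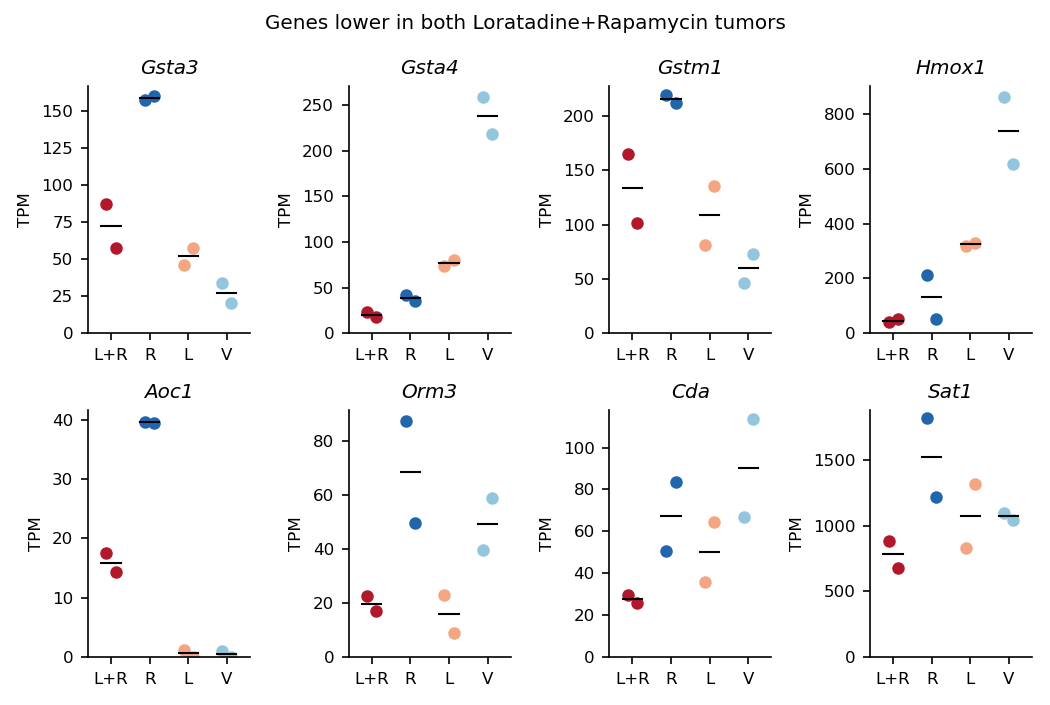
TPM of 8 genes in each tumor of the Loratadine+Rapamycin (L+R), Rapamycin (R), Loratadine (L) and Vehicle (V) arms; points are tumors and bars the mean of 2. The genes were picked among those with both L+R points below both R points. Gsta4 and Hmox1 peak in V, Gsta3, Gstm1 and Aoc1 in R.

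Other genes lower in both Loratadine+Rapamycin tumors were enzymes of polyamine and nucleoside breakdown and an acute phase protein. Sat1, the acetyltransferase that starts the breakdown of spermidine and spermine, had 884 and 679.7 TPM in Loratadine+Rapamycin tumors, against 1819 and 1213 TPM in Rapamycin tumors. Cda, cytidine deaminase, had 29.9 and 25.8 TPM in Loratadine+Rapamycin tumors, against 50.9 and 83.7 TPM in Rapamycin tumors. Orm3, an orosomucoid of the acute phase, had 22.5 and 17.1 TPM in Loratadine+Rapamycin tumors, against 87.4 and 49.6 TPM in Rapamycin tumors. In each of the 3 the higher Loratadine+Rapamycin tumor had less than the lower Rapamycin tumor.

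Fermt1, the epithelial integrin activator kindlin-1, had 5.51 and 3.11 TPM in Loratadine+Rapamycin tumors, against 15.3 and 13.9 TPM in Rapamycin tumors. Epor, the erythropoietin receptor, had 6.34 and 4.19 TPM in Loratadine+Rapamycin tumors, against 14.8 and 12.2 TPM in Rapamycin tumors. Lyst, which regulates the size of lysosomes, had 9.15 and 6.55 TPM in Loratadine+Rapamycin tumors, against 16.9 and 13.2 TPM in Rapamycin tumors. The arms were clear of each other in all 3 genes, as the rule that named these genes requires. Rgl3, an exchange factor of Ral GTPases, and Adgrg3, an adhesion receptor of neutrophils, had differences of -0.76 and -1.49 on the log2 scale. Olfr907, listed as an olfactory receptor, had 1.61 and 1.27 TPM in Loratadine+Rapamycin tumors, against 3.31 and 8.09 TPM in Rapamycin tumors. Mcpt2, a protease of mucosal mast cells, had 4.03 and 2.93 TPM in Loratadine+Rapamycin tumors, against 10.3 and 62.5 TPM in Rapamycin tumors, and G3L was also the highest tumor for the mast cell list as a whole (2.66 and 2.13 in Loratadine+Rapamycin tumors, 2.45 and 4.37 in Rapamycin tumors). Without G3L the median of that list was 0.09, against -1.0 with it.

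Genes of histamine synthesis, breakdown and reception were measured because loratadine acts on this pathway. Of 17 genes, 12 passed the filter, and 3 of them lay above both Rapamycin tumors and 3 below (25% each way, beside 19.4% above and 6.65% below over all genes). The median difference was 0.02, with -0.05 after median-of-ratios scaling, -0.09 after quantile normalization, -0.16 without D1L and 0.22 without G3L. Aoc1, diamine oxidase, which breaks down histamine outside cells, had 17.5 and 14.4 TPM in Loratadine+Rapamycin tumors, against 39.6 and 39.4 TPM in Rapamycin tumors, with a log2 difference of -1.26 and an interval of -2.35 to -0.18 (limma adjusted p = 1). It was at 1.33 and 0.0813 TPM in Loratadine tumors and at 1.12 and 0.0598 TPM in Vehicle tumors. Hdc, which makes histamine from histidine, had 3.81 and 2.4 TPM in Loratadine+Rapamycin tumors, against 5.60 and 3.93 TPM in Rapamycin tumors. Hnmt, which methylates histamine inside cells, had 1.05 and 1.80 TPM in Loratadine+Rapamycin tumors, against 0.708 and 0.769 TPM in Rapamycin tumors. Hnmt was near the filter of 1 TPM, and its log2 difference was 0.46 with an interval of -0.39 to 1.31. So the 2 genes of breakdown had opposite order in these tumors, clearly apart only for Aoc1, and neither passed the test.

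Hrh1, the receptor that loratadine blocks, was too low to be tested, at 0.641 and 1.12 TPM in Loratadine+Rapamycin tumors, 0.336 and 0.630 TPM in Rapamycin tumors, 0.598 and 0.624 TPM in Loratadine tumors and 0.386 and 0.535 TPM in Vehicle tumors. The monoamine oxidase genes, whose enzymes act on the methylated product, overlapped between the arms. Maoa was at 19.8 and 22.5 TPM in Loratadine+Rapamycin tumors and at 33.5 and 16.4 TPM in Rapamycin tumors, and Maob at 9.32 and 9.33 TPM in Loratadine+Rapamycin tumors and at 0.442 and 17.7 TPM in Rapamycin tumors.

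In treated tumors the study also followed HRH1, phosphorylated DRP1, a fission marker, and total ribosomal protein S6 by Western blot, and proliferation by immunostaining. With loratadine and rapamycin it reported more HRH1 and phosphorylated DRP1 and less total S6 than with rapamycin alone. It also reported less Ki67 staining with the drug treatments. It measured the expression of epithelial and mesenchymal marker genes in cultured cells of the tumor line depleted of Maoa or Hrh1. Its RNA sequencing of the tumors pointed to changes in differentiation and development processes with loratadine. Here the transcripts in the tumors are described, and that of Dnm1l does not measure the phosphorylation of DRP1. The transcripts of Hrh1, Rps6 and Mki67 likewise do not measure their proteins. Dnm1l, which encodes DRP1, had 57.1 and 55.6 TPM in Loratadine+Rapamycin tumors, against 42.6 and 51.4 TPM in Rapamycin tumors, a log2 difference of 0.26 with an interval of -0.14 to 0.66. Mtfr1, a further fission gene, had 24.6 and 27.1 TPM in Loratadine+Rapamycin tumors, against 20.6 and 17.9 TPM in Rapamycin tumors, and Mfn2, which fuses outer membranes, had 35.7 and 38.9 TPM in Loratadine+Rapamycin tumors, against 32.8 and 30.7 TPM in Rapamycin tumors. Of 13 fission and fusion genes tested, 4 lay above (30.8%, beside 19.4% of all genes) and 2 below (15.4%, beside 6.65%), with a median of 0.15 (-0.03 without G3L). Rps6 was at 1023 and 1097 TPM in Loratadine+Rapamycin tumors and at 1069 and 1067 TPM in Rapamycin tumors, a log2 difference of -0.01 with an interval of -0.48 to 0.45 (0.10 after quantile normalization).

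Mki67, a marker of dividing cells, was at 3.45 and 17.2 TPM in Loratadine+Rapamycin tumors and at 3.93 and 4.6 TPM in Rapamycin tumors. The cell cycle list had the same shape, with means of 3.09 and 4.53 in Loratadine+Rapamycin tumors and of 3.21 and 3.55 in Rapamycin tumors. Of its 25 genes 24 had a difference above 0, beside 63.1% of all genes. Without C1R the median was -0.24 in place of 0.43. Then 15 genes lay below both Rapamycin tumors and 1 above (beside 13.4 and 34.0% of all genes). Among the mesenchymal genes, Twist1 had 6.52 and 7.64 TPM in Loratadine+Rapamycin tumors, against 5.28 and 3.64 TPM in Rapamycin tumors. Snai1 (6.30 and 13.9 TPM in Loratadine+Rapamycin tumors, against 6.80 and 9.37 TPM in Rapamycin tumors) and Vim (1678 and 2471 TPM in Loratadine+Rapamycin tumors, against 1521 and 1958 TPM in Rapamycin tumors) overlapped between the arms. Epcam, an epithelial adhesion protein, was at 44.8 and 19.9 TPM in Loratadine+Rapamycin tumors, inside the 3.95 and 86.1 TPM of the Rapamycin tumors.

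Ribosomal protein genes, whose mRNAs are translated under mTORC1 control, were slightly lower as a group. Of 26 tested, 25 had a difference below 0, while 63.1% of all genes had one above 0. Below both Rapamycin tumors lay 11 (42.3%, beside 6.65% of all genes) and above both lay 0, and the median was -0.22. Rpl30 had 1447 and 1472 TPM in Loratadine+Rapamycin tumors, against 1852 and 1864 TPM in Rapamycin tumors, and Rpl8 had 1308 and 1265 TPM in Loratadine+Rapamycin tumors, against 1684 and 1734 TPM in Rapamycin tumors. The count depends on the scaling, with 22 below and 0 above after median-of-ratios scaling and 6 below and 3 above after quantile normalization. It also depends on the Rapamycin tumors, with 12 below and 5 above without D1L and 24 below and 1 above without G3L. Of 18 glycolysis genes 7 lay below (38.9%, beside 6.65% of all genes) and 0 above, with a median of -0.21 (-0.36 without A3L and -0.16 without C1R). Without A3L 3 lay above and 9 below (beside 34.8 and 21.8% of all genes). Without G3L 5 lay above and 10 below (beside 41.3 and 32.5%). Without C1R or without D1L 0 lay above (beside 34.0 and 48.5%). Pgk1, phosphoglycerate kinase, was at 292 and 290.2 TPM in Loratadine+Rapamycin tumors and at 410.5 and 362 TPM in Rapamycin tumors. All 22 sterol synthesis genes had a difference above 0 (median 0.36), beside 63.1% of all genes. That share of all genes was 50.5% after median-of-ratios scaling and 48.9% after quantile normalization. Of the 22, 5 lay above both Rapamycin tumors (22.7%, near the 19.4% of all genes), and 2 after either other scaling (beside 12.1 and 11.9%). Insig1, which holds the sterol sensor in the endoplasmic reticulum, overlapped, at 30.4 and 51.5 TPM in Loratadine+Rapamycin tumors and 17.8 and 30.5 TPM in Rapamycin tumors. The sterol median was 0.07 without C1R and 0.05 without D1L.

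Several secreted signals were higher in both Loratadine+Rapamycin tumors, in the Wnt, BMP, chemokine and prostaglandin lists, whose shares of such genes (19.0 to 30%) were closer to the 19.4% of all genes. Of 21 Wnt pathway genes tested, 4 lay above and 0 below (median 0.18), among them Sfrp2, a secreted Wnt modulator of fibroblasts, with 22.4 and 23.7 TPM in Loratadine+Rapamycin tumors, against 6.23 and 10.9 TPM in Rapamycin tumors. Sfrp4, of the same family, had 5.04 and 18.3 TPM in Loratadine+Rapamycin tumors, against 3.82 and 0.489 TPM in Rapamycin tumors. Of 21 BMP and TGF-beta genes, 5 lay above and 3 below (median 0.17, and -0.14 without G3L). Inhbb, a chain of activin B, had 32.4 and 87.1 TPM in Loratadine+Rapamycin tumors, against 9.19 and 24.1 TPM in Rapamycin tumors, and Id1, a target of BMP signaling, had 26.2 TPM in both Loratadine+Rapamycin tumors, against 33.3 and 44.3 TPM in Rapamycin tumors. Tgfb3, a TGF-beta ligand, had 24.8 and 28.6 TPM in Loratadine+Rapamycin tumors, against 19.4 TPM in both Rapamycin tumors. Inhbb and Tgfb3 thus lay above both Rapamycin tumors and Id1 below, and no link between them was tested.

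Of 20 chemokine genes, 6 lay above and 2 below (median 0.29). Ccl11, eotaxin, had 4.13 and 11.8 TPM in Loratadine+Rapamycin tumors, against 1.35 and 1.90 TPM in Rapamycin tumors, and Ccl9 had 19.5 and 38.0 TPM in Loratadine+Rapamycin tumors, against 9.28 and 17.1 TPM in Rapamycin tumors. The order in the other arms was not shared, since Ccl9 was at 38.0 and 61.7 TPM in Loratadine tumors and 39.7 and 52.6 TPM in Vehicle tumors, and Ccl11 at 7.27 and 4.9 TPM in Loratadine tumors and 0.771 and 1.34 TPM in Vehicle tumors. Ccl21a, a chemokine of lymphatic vessels with near-identical copies in the mouse genome, had 4.05 and 2.35 TPM in Loratadine+Rapamycin tumors, against 0.738 and 0.00122 TPM in Rapamycin tumors. Among 14 genes of prostaglandin synthesis and reception (3 above, 1 below, median 0.01) Ptgs2, the inducible cyclooxygenase, had 2.58 and 2.54 TPM in Loratadine+Rapamycin tumors, against 1.65 and 1.02 TPM in Rapamycin tumors. Of 17 immediate early genes 6 lay above (35.3%, beside 19.4% of all genes) and 0 below, with a median of 0.39 (0.24 without A3L). Dusp1, a phosphatase of MAP kinases that also responds to tissue handling, had 133 and 249 TPM in Loratadine+Rapamycin tumors, against 80.9 and 82.4 TPM in Rapamycin tumors.

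Epithelial junction, mucin, interferon and T cell lists had means between those of the 2 Rapamycin tumors, which were far apart. Of the 54 lists, the list mean of both Loratadine+Rapamycin tumors lay between the 2 Rapamycin tumors for 14 (25.9%), above both for 15 (27.8%), and below both for 3 (5.56%). For 6 lists (11.1%) both Rapamycin tumors lay between the Loratadine+Rapamycin tumors. The glandular mucin and secretion list had means of 6.42 and 5.89 in Loratadine+Rapamycin tumors and of 3.14 and 7.79 in Rapamycin tumors. Ltf, lactoferrin of glandular secretions, was at 1016 and 588 TPM in Loratadine+Rapamycin tumors and at 3.10 and 2716 TPM in Rapamycin tumors, and Muc1 at 78.3 and 43.1 TPM in Loratadine+Rapamycin tumors and at 2.16 and 328 TPM in Rapamycin tumors. Interferon response genes had list means of 4.44 and 5.11 in Loratadine+Rapamycin tumors and of 3.48 and 5.38 in Rapamycin tumors, and T cell markers 3.09 and 2.95 in Loratadine+Rapamycin tumors and 2.56 and 3.56 in Rapamycin tumors. In all of these G3L was the highest of the 4 tumors and D1L the lowest, so a difference between the arms could not be read.

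**Figure D4:**
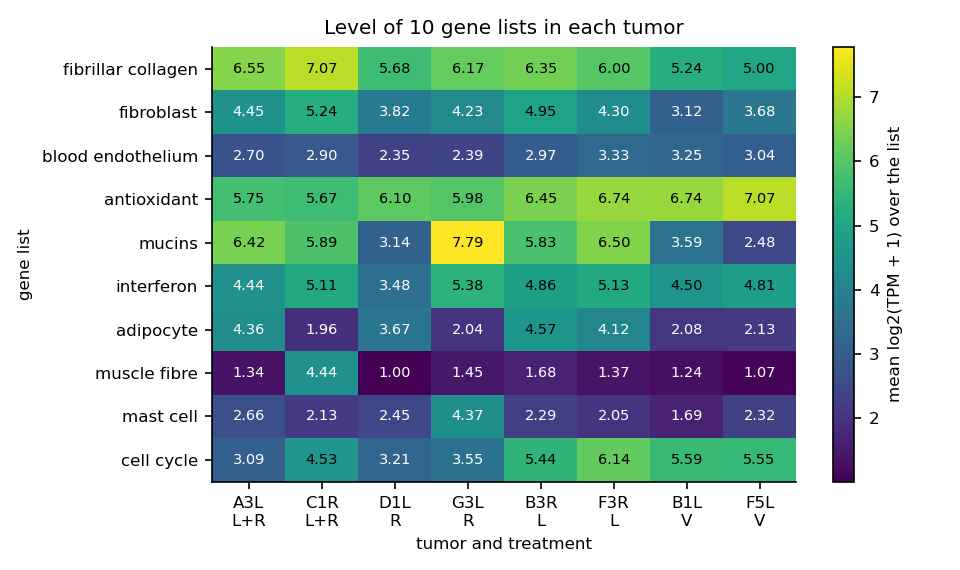
Mean log2(TPM + 1) of 10 gene lists in each tumor, with the arm (L+R, R, L, V) under its code; a brighter color is a higher level. The collagen and fibroblast rows are higher in both L+R columns than in both R columns, the antioxidant row is lower, and in the mucin and interferon rows the L+R columns lie between the 2 R columns.

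The effect of loratadine with rapamycin was set beside its effect without it, Loratadine against Vehicle. That comparison shares no tumor with the first, but drug and flank, as read from the codes, cannot be told apart in it. Over the 15095 genes the 2 log2 differences had a Pearson r of 0.159 across genes, which are not independent replicates, and 56.0% had the same sign. Of the 359 genes at an unadjusted p under 0.05 with rapamycin, 240 (66.9%) had the same sign without it. Of the 282 that were higher, 205 (72.7%) were also higher without rapamycin, beside 62.0% of all genes, and of the 77 that were lower, 35 (45.5%) were also lower, beside 37.9%. These shares depend on the Rapamycin tumors: without D1L the r was -0.19 and the share of the genes then under that p was 38.4%, and without G3L they were 0.38 and 77.8%. With the flank as a term they were 0.44 and 88.0%, but that term rests on A3L and C1R alone. It puts A3L into both differences with the same sign, which raises the agreement, so these values cannot show a shared effect.

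Both Loratadine tumors lay above both Vehicle tumors for 4987 genes (33.0%) and below both for 2250 genes (14.9%). The fibrillar collagen list was again high, with 19 of 22 above and 1 below and a median of 0.96, and so were fibroblast markers (median 0.98). The part of the flank in these values was not tested. C1R, by its code the right-flank tumor with rapamycin, had the highest collagen mean of the 4 (7.07). Col3a1 had 423 and 302 TPM in Loratadine tumors, against 145 and 117 TPM in Vehicle tumors, a log2 difference of 1.45 beside 1.52 with rapamycin. Lum had 43.8 and 19.5 TPM in Loratadine tumors, against 4.66 and 6.85 TPM in Vehicle tumors, a difference of 2.18 beside 2.1. The endothelial list did not share this: its median was 0.12 without rapamycin, as it was over all genes.

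The difference between the 2 loratadine effects was tested in the same fit as an interaction, and 1 gene of 15095 (0.00662%) passed it. That gene was the predicted gene Gm49450, which was at 0 TPM in all tumors but the 2 Vehicle tumors (55.1 and 77.3 TPM), so it carries no difference between the arms with rapamycin. None of the other genes named here passed it, so neither the larger difference of Angptl7 and Kng2 with rapamycin nor the opposite sign of Gsta3 is shown to depend on rapamycin.

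**Figure D5:**
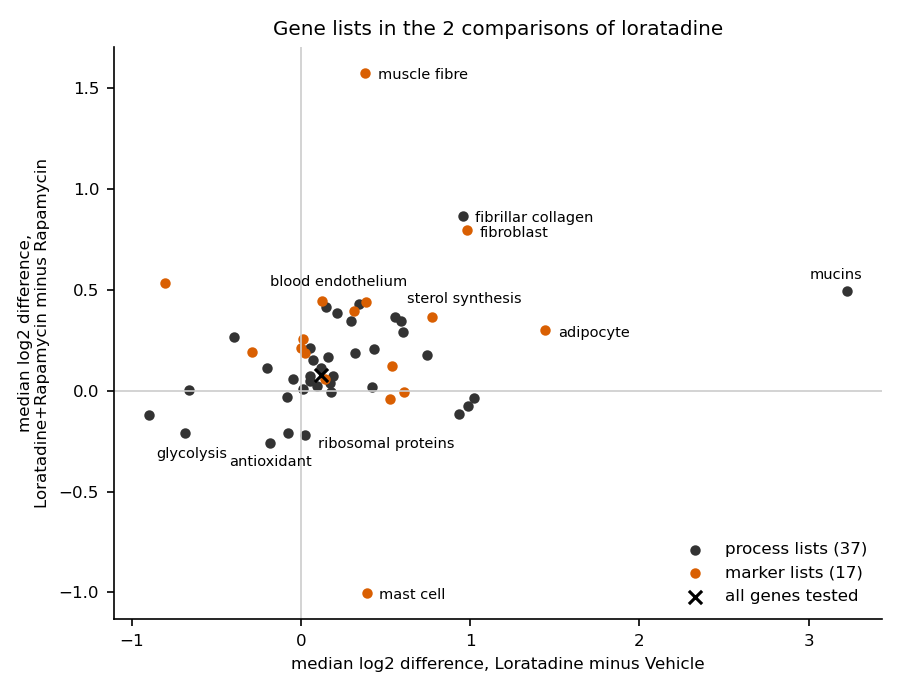
Median log2 difference of each of the 54 gene lists in Loratadine+Rapamycin against Rapamycin (vertical axis) and in Loratadine against Vehicle (horizontal axis), with process lists in black, marker lists in orange and all genes tested as a cross. Fibrillar collagen (0.87 and 0.96) and fibroblast markers (0.80 and 0.98) are high on both axes. Mucins are the highest on the horizontal one (0.49 and 3.23), and their vertical value is -1.81 without D1L and 2.77 without G3L. Mast cell markers are the lowest on the vertical one (-1.0).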

How the data were processed

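The authors deposited TPM per gene for each of 8 tumor libraries, as 2 tables whose largest difference is 5e-07 TPM, and the first was used. By the paper's methods they trimmed single-end reads, quantified with Kallisto and summed to genes with tximport, while the tools in the submitters' processing notes are bedtools, SAMtools 0.1.18 and STAR 2.4.0f1, with mm9 as the build, and which of these gave the values was not settled. TPM keeps no read depth, so precision rests on the spread between tumors, and no count test could be run. The listed values sum to between 993546 and 994645 in a library.

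Values were taken as log2(TPM + 1) where a gene reached 1 TPM in 2 or more libraries. They were tested with limma 3.58.1 in R 4.3.3 (trend, empirical Bayes, two-sided, Benjamini-Hochberg, threshold 0.05) on 4 group means of the 8 libraries (4 residual degrees of freedom). An interval is the 95% interval of that fit. Positions are from NCBIM37, which holds 14140 of the tested identifiers, and 60 names that were empty or had become numbers were replaced from the identifier. Gene lists (37 of processes and 17 of cell type markers, 867 genes, 783 tested) are described by counts and medians, with no test. The comparison, the lists and the genes were chosen with earlier results of these data known.

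Genes were named by a rule: 10 a direction with the smallest p and 5 with the largest difference among non-overlapping genes with a mean of 5 TPM or more in the higher arm, without predicted genes and immune receptor segments; the genes that the study follows; and up to 4 of each list by p. Not every gene that the rule takes is reported here. The fit was tested on simulated data. The alternatives used pseudocounts of 0.1 and 0.5, no filter, a floor of 5 TPM on the mean, median-of-ratios and quantile scaling, limma without trend, robust or weighted, only the 4 libraries, an additive model, the flank as a term, the second table and each library left out. The counts of lists under other scalings or without 1 tumor were added after seeing the data. Python 3.11.15 with numpy 2.4.6, pandas 2.3.3 and matplotlib 3.10.9 made the tables and figures.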

Additional observations from a re-analysis of the deposited data

Results flagged for a closer look

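For 7 of the genes named above, both Loratadine+Rapamycin tumors lay on one side of both Rapamycin tumors, and both Loratadine tumors lay on the opposite side of both Vehicle tumors. None of these differences between the effects passed the test over all genes (limma interaction, adjusted p of 0.766 for Gsta3 and 0.925 for the other 6). The interaction, on the log2 scale, was -2.09 for Gsta3 (-1.15 with rapamycin and 0.93 without), -1.57 for Gstm1 (-0.73 and 0.84) and -2.32 for Olfr907 (-1.36 and 0.96). It was 1.74 for Dusp1 (1.15 and -0.60), 1.28 for Ptgs2 (0.62 and -0.66), 0.87 for Mtfr1 (0.41 and -0.46) and 0.71 for Mfn2 (0.23 and -0.48). Gsta3 had 46.1 and 57.6 TPM in Loratadine tumors, against 34.0 and 20.6 TPM in Vehicle tumors, the opposite order to that with rapamycin.

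The predicted gene Gm49450 had an interaction of 6.05 (limma adjusted p = 0.013), the only one past the threshold. It was at 0 TPM in all 6 tumors given a drug and at 55.1 and 77.3 TPM in the 2 Vehicle tumors, so the interaction comes from the comparison without rapamycin.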

How the results depend on the processing

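Depth is unknown, and with 2 tumors an arm the test is limited to large differences. The count of genes past the adjusted threshold was 0 in the main test and in the alternatives run, with the exception of 1 at a pseudocount of 0.1 (the pseudogene Rps13-ps2, at 0.0376 and 0.000736 TPM in Loratadine+Rapamycin tumors, against 34.2 and 49.6 TPM in Rapamycin tumors) and 11 with no filter. The 359 genes at an unadjusted p under 0.05 became 931 with no filter, 228 at a mean floor of 5 TPM, 1255 in the additive model, 184 with the flank as a term and 184 to 1028 with 1 tumor left out (184 without C1R, 596 without A3L, 891 without D1L and 1028 without G3L). The flank term gives the same contrast as leaving out C1R. The additive model estimates 1 loratadine effect over the tumors with and without rapamycin, so its values are not those of this comparison alone. The single interaction call was lost at a pseudocount of 0.1, at a mean floor of 5 TPM, with the flank as a term and with any tumor left out (0 each), and 9 passed with no filter. The share of genes with the same sign ranged from 38.4 to 77.8% with 1 tumor left out. It was 88.0% with the flank as a term, where A3L enters both differences and raises the share. The median of the antioxidant list was -0.34 with median-of-ratios scaling and -0.14 in the additive model. That of the endothelial list was 0.66 at a pseudocount of 0.1, 0.34 after quantile normalization, 0.28 in the additive model, 0.33 with the flank as a term and 0.33 to 0.55 with 1 tumor left out.

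Of 883 log2 differences of 69 named genes under the other settings, 871 kept their direction. Limma without trend, robust or weighted, only the 4 libraries and the second table leave the difference between the arms as it was. Their values therefore had to keep the direction. The 12 reversed ones were Rps6 after quantile normalization (0.10) and in the additive model (0.065), and in that model Vim (-0.21), Tsc2 (0.10), Gstm1 (0.054), Mtfr1 (-0.024), Mfn2 (-0.13) and Ptgs2 (-0.0198). With the flank as a term they were Mki67 (-0.24), Snai1 (-0.30), Vim (-0.0403) and Tsc2 (0.10). The additive model also takes in Loratadine against Vehicle, so its reversals are not of this comparison alone. Leaving out a Loratadine or Vehicle tumor cannot change the difference between the arms with rapamycin, so those values could not reverse. With 1 tumor left out, 541 of 552 kept their direction, and 10 genes had at least 1 reversal: Maoa (-0.64 to 0.35), Maob (-0.86 to 2.84), Epcam (-1.49 to 2.64), Ltf (-1.81 to 7.56) and Muc1 (-2.48 to 4.23), each reversed without D1L, Mki67 (-0.24 to 1.79), Snai1 (-0.30 to 0.73) and Vim (-0.0403 to 0.52) without C1R, Rps6 (-0.062 to 0.038) without A3L, and Tsc2 (-0.37 to 0.10) without D1L or C1R. Of 702 list medians under the other settings, 54 moved by more than the spread between tumors, as did 54 of 432 with 1 tumor left out. Both totals include the settings that cannot change the difference.

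No paired analysis was possible because the labels number no replicates and state no pairing of these 4 tumors. The cause of these shifts was not tested.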
